A study of Canis lupus familiaris with 10 samples.

Results

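TMEM176A, TMEM176B and LOC100687459 are 3 of the 23266 gene symbols in a table of 3′ RNA-Seq values from canine cutaneous histiocytomas (CCH), benign tumors of the dog's skin that usually regress. They were chosen by their measured values, the normalized read counts of this table, which for each were higher in the late than in the early stage. The difference between the stages is therefore the criterion of choice and is given below as a description, without a test. The 3 genes lie close together in the dog genome, with 1 annotated gene between LOC100687459 and the other two, and all 3 passed the filter on low values, which left 12397 genes.

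The study set early against late CCH as a comparison of stages of a regressing tumor, in order to compare a sequencing with a hybridization platform on similar tissues. Each of the stages held 5 formalin-fixed, paraffin-embedded (FFPE) samples, 1 library each. Early CCH is group 1 and late CCH is group 3 of the staging scheme of Cockerell and Slauson, and the labels of the late samples add that they were enriched in lymphocytes. The tumors had been excised from pet dogs of several breeds, aged 0.5 to 5 years in the early stage (given for 4 of 5) and 1.5 to 9 years in the late stage, and no treatment is named for either stage. All samples share fixation, the RNA isolation kit and the QuantSeq 3′ protocol for low-quality RNA, and tissue next to the tumor had been removed, so that tumor cells, infiltrating lymphocytes and remaining skin cells were measured as a mixture. In such bulk samples, fewer cells of a type and less RNA per cell cannot be told apart.

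TMEM176A and TMEM176B encode multi-pass membrane proteins that resemble the MS4A family, to which CD20 belongs, and have been described as cation channels of intracellular vesicles. They are known from dendritic cells and macrophages, where TMEM176B is linked to antigen presentation on MHC class II and to restraint of the NLRP3 inflammasome. Both are also known from lymphocytes of the type 17 kind. CCH itself arises from progenitors of Langerhans cells, dendritic cells of the epidermis, and its regression is accompanied by T cells. LOC100687459 carries only a locus name in the table, and no function is given for it here.

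The unit of the values is a normalized read count, obtained by dividing the reads of a library by its size factor. Libraries held 3132916 to 4439709 reads in the early and 2973125 to 3230455 reads in the late stage, and 3 reads were worth 2.36 to 3.22 of these units. The numbers 1 to 5 are only names for the libraries of a stage, since a column shows the stage but not the sample. DV200, the percentage of RNA fragments over 200 nucleotides, was 64.5 to 71.2% in the early and 71.2 to 75.8% in the late samples, and each RNA extraction batch listed by the study held CCH samples of 1 stage. Stage, extraction batch and RNA quality cannot be told apart in this design.

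TMEM176A was high in each late library and varied widely among the early ones. Its normalized read counts in early libraries 1 to 5 were 60.9, 273, 365, 202 and 95.5. In late libraries 1 to 5 they were 1030.15, 876, 603, 1339 and 1066. The stages did not overlap, with early libraries 1 and 5 lowest and late library 4 highest, and the lowest late value was 1.66 times the highest early value. The mean was 199 ± 125 (SD, n = 5) in the early and 983 ± 269.7 (SD, n = 5) in the late stage, a log2 fold change (log2FC, the late minus the early mean of log2(value + 1)) of 2.53 with a standard error (SE) of 0.42.

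TMEM176B was much lower than its neighbor in every library. Its normalized read counts were 12.4, 31.6, 24.4, 18.9 and 8.59 in early libraries 1 to 5. The late libraries 1 to 5 had 136, 56.1, 82.3, 156 and 99.7. The stages did not overlap here either, although the early values rest on 8 to 34 reads per library, and the exact Poisson 95% interval of early library 5 ran from 3.71 to 16.9. The mean was 19.2 ± 9.24 (SD, n = 5) in the early and 106 ± 40.5 (SD, n = 5) in the late stage, with a log2FC of 2.45 (SE 0.38), and the lowest late value was 1.77 times the highest early one.

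LOC100687459 had levels close to those of TMEM176A. Its normalized read counts in early libraries 1 to 5 were 102, 219.6, 378, 217 and 42.9. The late libraries 1 to 5 had 1239, 979.9, 571, 1149 and 1022. The stages did not overlap, early library 5 was lowest and late library 1 highest. The mean was 192 ± 129 (SD, n = 5) in the early and 992 ± 257 (SD, n = 5) in the late stage, with a log2FC of 2.66 (SE 0.47) and a lowest late value 1.51 times the highest early value.

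Thus 3 of 3 genes had every late value above every early value, which was so for 5.91% of all genes tested. Since the genes were chosen for this contrast, nothing is read from that count. In the order of log2FC over 12397 genes, LOC100687459 stood at place 167, TMEM176A at place 198 and TMEM176B at place 211. The genes at the places just outside were CLU at place 166 (log2FC 2.66) and CAB39L at place 212 (log2FC 2.45), so no gap in the order marks the 3 genes off. By level, TMEM176A and LOC100687459 stood at percentiles 93.0 and 93.1 of the mean over all tested genes, TMEM176B at percentile 38.7.

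**Figure D1:**
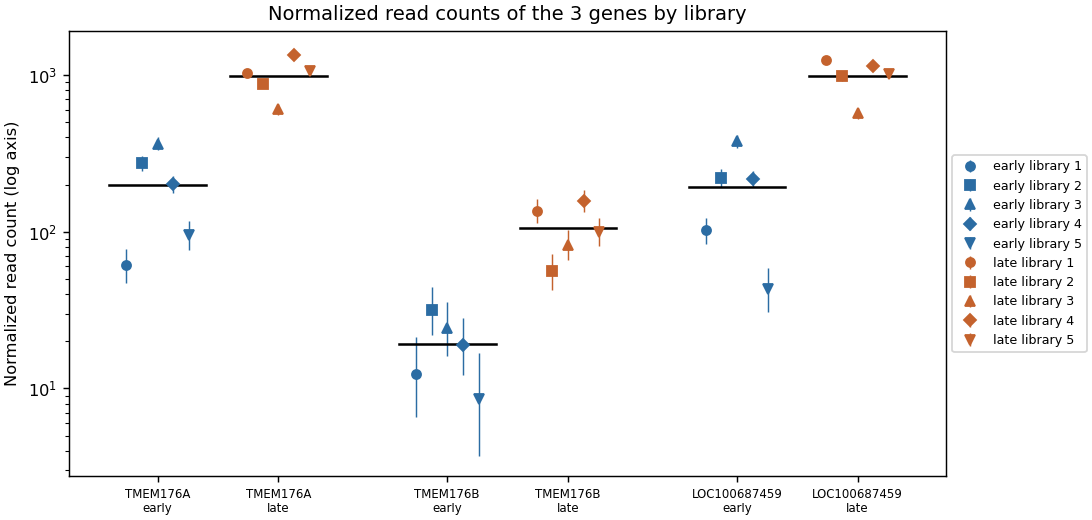
Normalized read counts (y axis, log scale) of TMEM176A, TMEM176B and LOC100687459 in the 5 early (blue) and 5 late (orange) libraries. Points are libraries, vertical lines are exact Poisson 95% intervals for counting error only, and horizontal bars are stage means. For each gene the late points lie above the early points, and early libraries 1 and 5 are the lowest of each gene.

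The spread among the early libraries was larger than among the late ones for each of the 3 genes. On the log2(value + 1) scale TMEM176A had an SD of 1.06 among early and 0.43 among late libraries, LOC100687459 of 1.21 and 0.44, and TMEM176B of 0.71 and 0.58. Over all genes tested, the median SD was 0.42 among early and 0.41 among late libraries. The highest early library had 5.98 times the TMEM176A value of the lowest, and 8.81 times that of LOC100687459, while the late libraries spanned 2.22-fold and 2.17-fold. For TMEM176B these spans were 3.68-fold and 2.79-fold. In the early stage the SD of LOC100687459 lay at percentile 91.7 of all genes tested, that of TMEM176A at percentile 89.2 and that of TMEM176B at percentile 75.8.

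The balance between TMEM176A and TMEM176B was similar in both stages. QuantSeq 3′ makes 1 fragment per transcript, so reads of the genes can be set side by side without regard to length. Such ratios still depend on the annotated 3′ ends and on how reads that map to several places were shared, which was not tested. TMEM176A had 4.92, 8.62, 14.9, 10.7 and 11.1 reads per read of TMEM176B in early libraries 1 to 5, and 7.56, 15.6, 7.33, 8.56 and 10.7 in late libraries 1 to 5. The means were 10.1 ± 3.66 (SD, n = 5) and 9.95 ± 3.43 (SD, n = 5), and the stages overlapped over most of their range. Summed over libraries, the ratio was 10.4 in the early stage (1105 against 106 reads) and 9.27 in the late stage (4905 against 529 reads).

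Early library 1 had the lowest share of TMEM176A in the reads of the TMEM176 pair, 83.1%, with a Wilson 95% interval of 73.2 to 89.9%. The highest was late library 2 with 94.0% (92.3 to 95.3%), and late library 3 was the lowest of its stage with 88.0% (85.4 to 90.2%). The intervals of these late libraries, the highest and the lowest of their stage, do not overlap. They cover counting error only, since reads amplified by PCR and not tagged by molecule are not independent. TMEM176A and LOC100687459 were nearly equal, with 1.19 ± 0.62 reads of TMEM176A per read of LOC100687459 in the early and 0.998 ± 0.134 in the late stage (SD, n = 5 each). The early ratios ran from 0.598 in library 1 to 2.23 in library 5, so that both libraries with the lowest TMEM176A differed most from the rest, in opposite directions.

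**Figure D2:**
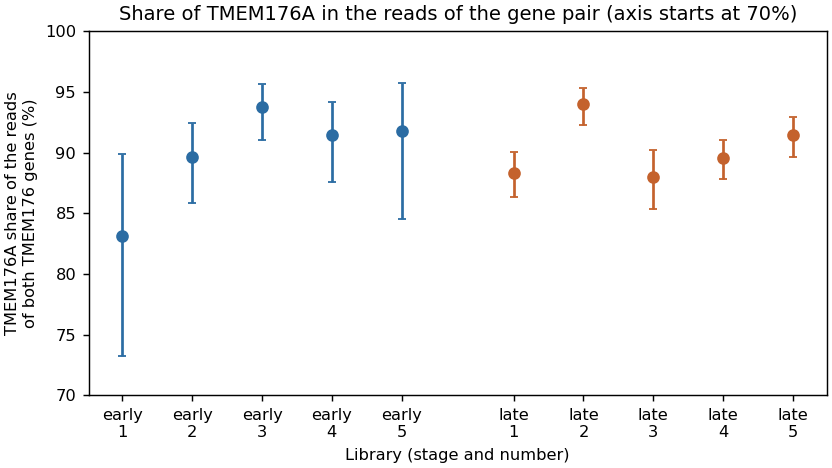
Share of TMEM176A in the summed reads of TMEM176A and TMEM176B (y axis, percent, starting at 70) in each early (blue) and late (orange) library. Bars are Wilson 95% intervals, and all shares lie between 88.0 and 94.0% except that of early library 1 at 83.1%.

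To describe how the genes varied independently of the stage, each library's log2(value + 1) was taken as a deviation from its stage mean, and the coefficients below run over 10 libraries. The libraries share their scaling, and with 5 per stage no coefficient was tested. The 3 genes spread more widely among the early libraries, which thus weigh more in their coefficients than the late ones. TMEM176A and TMEM176B had a Pearson coefficient of 0.76 (Spearman 0.87), and 0.85 without early library 5 and late library 2, the most distant ones. TMEM176A and LOC100687459 had 0.83 (Spearman 0.90), and 0.88 without early libraries 3 and 5. For TMEM176B and LOC100687459 it was 0.76 (Spearman 0.84), and 0.65 without the same libraries. Libraries that were high or low for one of the genes within a stage were thus mostly high or low for the others. Of the 12396 other genes, TMEM176B stood at place 228 for likeness to TMEM176A, and TMEM176A at place 113 for likeness to TMEM176B, so other genes lay closer to each than its partner.

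The TMEM176 pair was then set against genes of T cells and of macrophages in each library. The score of a list is the mean, over its tested genes, of log2(value + 1) minus the gene's mean over the 10 libraries, and the pair was scored likewise. The pair score was -2.18, -0.47, -0.44, -1.04 and -2.10 in early libraries 1 to 5, and 1.53, 0.78, 0.78, 1.81 and 1.33 in late libraries 1 to 5. The T-cell score was -4.18, -1.10, 0.31, -0.06 and -2.47 in the early and 1.72, 1.27, 1.19, 1.84 and 1.49 in the late libraries. Early libraries 1 and 5 were lowest and late library 4 highest in both. In the early libraries the macrophage score followed another order, with -0.92, 0.97, -0.63, -1.28 and -0.04. Its highest library of all 10 was early library 2. In late libraries 1 to 5 the macrophage score was 0.69, 0.20, 0.06, 0.47 and 0.48. Late libraries 1, 4 and 5 thus stood above late libraries 2 and 3, as they did in the pair score.

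In deviations from the stage means, the pair had a Pearson coefficient of 0.82 with the T-cell score (Spearman 0.92), and 0.70 without early libraries 1 and 3. With the macrophage score the coefficient was 0.35 (Spearman 0.24), and 0.23 without early libraries 2 and 4. The list of genes around the locus, described further on, had 0.81 with the pair (Spearman 0.85), and 0.76 without early libraries 1 and 2. The gaps between these coefficients were not tested. Each of these scores spread more widely among the early libraries, which thus weigh more in the coefficients, and none was taken within a single stage. TMEM176A had 0.91 with the T-cell score, LOC100687459 0.73 and TMEM176B 0.59, against 0.30, 0.00 and 0.37 with the macrophage score. Each of the 3 genes thus had a higher coefficient with the T-cell than with the macrophage score. TMEM176B had still higher coefficients with the conventional dendritic cell list (0.63) and the locus list (0.73). TMEM176A and LOC100687459 had their highest coefficient with the T-cell list. Conventional dendritic cell genes (0.75 with the pair, 0.54 without early libraries 1 and 3) and mature dendritic cell genes (0.74, and 0.37 without early libraries 1 and 5) also had high coefficients, which fell when the 2 most distant libraries were left out.

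**Figure D3:**
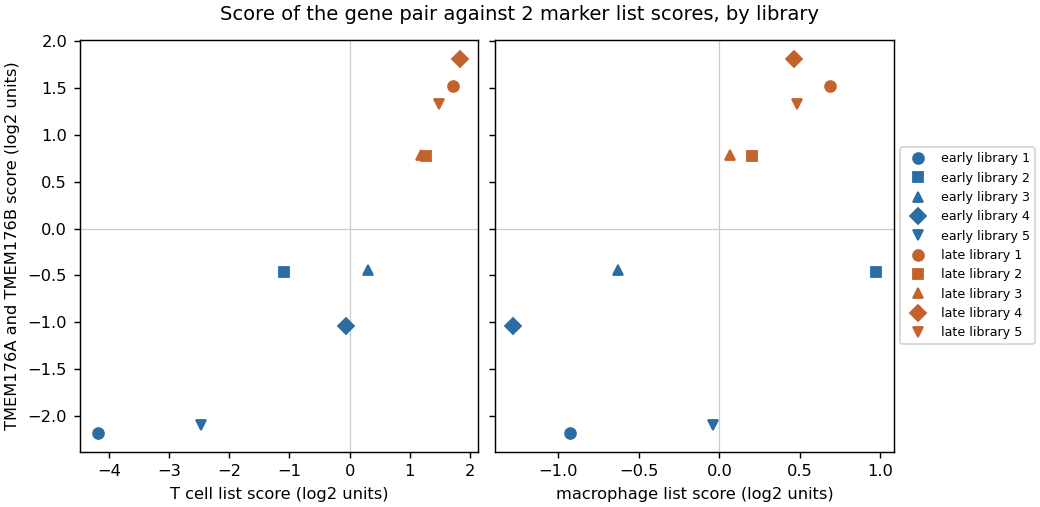
Score of TMEM176A and TMEM176B (y axis, log2 units) against the T-cell list score (left) and the macrophage list score (right), both in log2 units, in 5 early (blue) and 5 late (orange) libraries. Early libraries 1 and 5 are at the lower left of the T-cell panel, at -4.18 and -2.47, while in the macrophage panel early library 2 is farthest to the right at 0.97 with a pair score of -0.47.

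T-cell genes did not follow the TMEM176 genes in every respect. In early library 1, CD3E, a chain of the T-cell receptor complex, had 3 reads and CD6, a T-cell surface receptor, had 1 read. TMEM176A had 64 reads there and LOC100687459 had 107. CD6 lay below TMEM176A in every other library too, and IL7R of the same list went the other way. The normalized read count of IL7R was at least 265 in each early library, against 60.9 for TMEM176A in early library 1. From early to late the T-cell score differed by 3.00 and the pair score by 2.49, and the pair minus the T-cell list was 0.26 ± 1.20 (SD, n = 5) in the early and -0.26 ± 0.19 (SD, n = 5) in the late stage. The macrophage score differed by 0.76, and the pair minus the macrophage list averaged -0.86 ± 1.03 early and 0.86 ± 0.29 late (SD, n = 5 each), and no late value lay at or under an early one. These differences contain the contrast for which the genes were chosen and were not tested.

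Of the 17 T-cell genes, 17 were tested, 1 was called higher and 0 lower in late CCH. A call required an adjusted p of at most 0.05 with limma and the Benjamini-Yekutieli (BY) procedure over all 12397 genes and a log2FC of 1 or more in size, which 1.06% of genes reached upward and 1.11% downward. The genes called were 131 higher and 138 lower, a share of 48.7% higher, and with scaling by column totals it was 64.0%, 169 higher and 95 lower. The gene called was CD6, which rose from 13.9 ± 10.5 to 156 ± 19.6 (log2FC 3.85, SE 0.58, limma BY-adjusted p = 0.0226). It was called in 5 of 10 fits that left out 1 library, being lost without early library 5 and without late libraries 1, 2, 4 or 5, where its adjusted p was at most 0.0924. The median log2FC of the list was 3.14 against -0.00 over all genes tested, and 12 of 17 had every late value above every early value, against 5.91% of all genes. CD28, a costimulatory receptor, had the highest log2FC of the list (4.00, adjusted p = 0.0797 with limma) and IL7R, the interleukin 7 receptor, the lowest (0.24). CD3E had 165 ± 164 in the early and 819.9 ± 134 in the late stage (log2FC 3.53, limma adjusted p = 0.308). Early libraries had a summed level of the list of 386 to 3769 and late libraries of 5633 to 8701, without overlap. T-cell marker levels and the TMEM176 genes were both higher in late CCH. The late samples were labeled as enriched in lymphocytes and the genes were chosen because they rise, so nothing is read from this joint rise. The part of T cells in the difference was not tested.

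Of 19 macrophage genes, 17 were tested and 0 were called in either direction with limma, while 7 had an unadjusted p under 0.05 upward and 1 downward. DESeq2 called 2 and edgeR 0 of them. Over all 12397 genes tested, 1938 had an unadjusted p under 0.05 with limma upward and 1895 downward. DESeq2 called 810 and edgeR 177 of all genes tested. The counts given for the other lists stand beside these, and nothing more is read from them. The median log2FC of the macrophage list was 0.59, and 3 of 17 had every late value above every early value, against 5.91% of all genes. MSR1, a scavenger receptor, had the highest log2FC (2.25) with 45.2 ± 26.9 in the early and 229 ± 181 in the late stage, and ITGAM, an integrin chain of myeloid cells, the lowest (-0.91). CD68, a lysosomal protein of macrophages, had 313 ± 127 and 454 ± 130.1 (log2FC 0.59), and CD163, a scavenger receptor for haemoglobin, 323 ± 457 and 232 ± 70.4 (log2FC 0.30). Both overlapped between the stages, and early library 2 held the highest CD163 value, 1137. The summed level of the list ran from 5534 to 26118 early and from 10388 to 21926 late.

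Genes of Langerhans cells lay in the other direction from the TMEM176 genes. Of 11 Langerhans cell genes, 6 were tested, 0 were called higher and 2 lower, with a median log2FC of -1.80, and 3 of 6 had every late value below every early value, as 6.05% of all genes did. FLT3, a growth factor receptor of dendritic cells, fell from 292 ± 149 to 40.6 ± 27.8 (log2FC -2.89, limma BY-adjusted p = 0.0434), and FCER1A, the α chain of the IgE receptor, from 115 ± 75.1 to 17.5 ± 6.08 (log2FC -2.47, limma BY-adjusted p = 0.0401). With 1 library left out, FLT3 was called only without early library 2, early library 4 or late library 3, and FCER1A only without early library 1, with limma adjusted p of up to 0.135 and 0.111 over these fits. With edgeR, FCER1A was the 1 gene of the list called and FLT3 was not (edgeR adjusted p = 0.0559), and DESeq2 called 3. CD1A8 had the lowest log2FC of the list (-3.80, not called) and EPCAM the highest (-0.35). CD207, which encodes langerin, the defining protein of Langerhans cells, was not analysed here.

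Of 10 conventional dendritic cell genes, 7 were tested and 0 called with limma, with 2 upward and 1 downward at an unadjusted p under 0.05, 1 called by DESeq2 and 0 by edgeR. Their median log2FC was 0.14, from -1.06 for BATF3 to 2.44 for XCR1, a chemokine receptor of cross-presenting dendritic cells. Of 15 genes of mature dendritic cells, 14 were tested, 1 was called higher and 0 lower, with a median log2FC of 1.31. CD274, which encodes PD-L1, rose from 66.4 ± 46.4 to 272 ± 66.8 (log2FC 2.24, limma BY-adjusted p = 0.0419) and with 1 library left out was called only without early library 2 or 3, with an adjusted p of up to 0.122. edgeR called 0 genes of this list (adjusted p of CD274 = 0.0753) and DESeq2 called 5. IDO1, an enzyme of tryptophan breakdown, had the highest log2FC (4.21, not called) and the costimulatory ligand CD86 the lowest (-0.81, under the size needed for a call).

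Genes of the processes in which TMEM176B is known were set beside it. Of 20 genes of MHC class II presentation, 16 were tested, 0 were called higher and 1 lower, with a median log2FC of 0.19. IFI30, a thiol reductase of antigen processing, fell from 3462 ± 908 to 1205 ± 577 (log2FC -1.59, limma BY-adjusted p = 0.0453), and with 1 library left out was called only without early library 2 or late library 3, with an adjusted p of up to 0.153. No gene of this list was called with edgeR (adjusted p of IFI30 = 0.0780), without a filter or with scaling by column totals, and DESeq2 called 2. DLA-DOA had the highest log2FC (3.47, not called). The pair had a coefficient of 0.39 with the score of this list, and -0.08 without early library 1 and late library 2.

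Of 12 inflammasome genes, 7 were tested and 0 called with limma, edgeR or DESeq2, with 3 upward and 3 downward at an unadjusted p under 0.05. The median log2FC was 0.10, from -0.93 for NLRP1 to 0.86 for IL18, a cytokine that inflammasomes release. NLRP3 had 239, 274, 125, 163 and 253 in early libraries 1 to 5 and 133, 134, 128, 112 and 123 in the late ones, so that the stages overlapped only through early library 3. Early libraries averaged 211 ± 63.7 and late ones 126 ± 8.88 (log2FC -0.68, limma adjusted p = 0.516). In deviations from the stage means, its coefficient with the TMEM176 pair was -0.48, at place 7357 of 7868 genes, and was not tested. With the score of the whole inflammasome list, the pair had 0.27, and -0.42 without early libraries 1 and 2.

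Type 17 genes are those of lymphocytes that make interleukin 17. Of 15 genes on the list, 7 were tested and 0 called with limma, with 1 upward and 1 downward at an unadjusted p under 0.05, 1 called by DESeq2 and 0 by edgeR. Their median log2FC was 0.21, from -1.77 for the chemokine receptor CCR6 to 1.34 for RORA. The coefficient of the pair with their score was 0.00.

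The relatives of the TMEM176 genes were few in the table. Of 14 genes of the MS4A family, 3 were tested and 0 called with limma, with 1 upward and 1 downward at an unadjusted p under 0.05, 1 called by DESeq2 and 0 by edgeR. MS4A1, which encodes CD20 of B cells, had a log2FC of 3.62 and MS4A2, a chain of the IgE receptor, of -1.50, and the median was 0.39. The coefficient of the pair with the score of this list was 0.06.

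**Figure D4:**
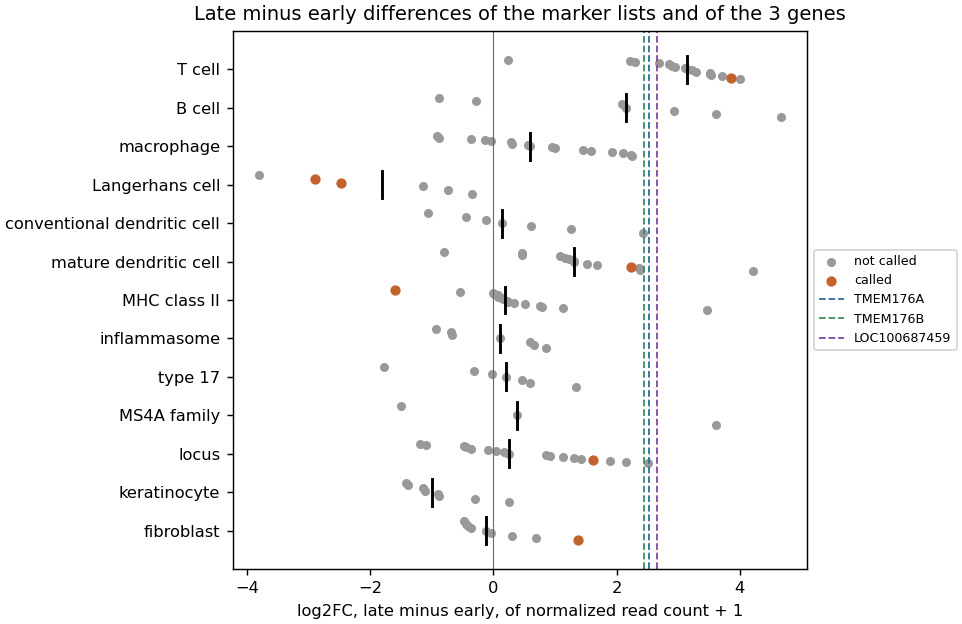
Late minus early log2FC (x axis) of the tested genes of 13 lists (rows). Points are genes, orange where called by limma with BY adjustment, black bars are list medians, and dashed lines are TMEM176A (2.53), TMEM176B (2.45) and LOC100687459 (2.66), which lie below the T-cell median of 3.14 and above the median of each other list.

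The neighbors of the 3 genes were read from the RefSeq order of the dog assembly UU_Cfam_GSD_1.0, which is more recent than the assembly used for counting and served only for order. LOC100687459, LOC102151258, TMEM176B and TMEM176A follow each other there, with a cluster of GIMAP genes, GTPases of lymphocytes, on the side of LOC100687459 and AOC1 and KCNH2 on the side of TMEM176A. LOC102151258 had 0 reads in 10 of 10 libraries. Of the 10 annotated genes on each side, 20 in all, 10 were tested, 1 was called higher and 0 lower, and 9 of 10 had a positive log2FC, with a median of 1.37 and a range of -0.16 to 2.51. Over all genes tested, 6171 of 12397 had a positive log2FC.

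The 4 tested GIMAP genes had log2FC values of 2.51 for GIMAP4, 2.15 for GIMAP1, 1.90 for GIMAP8 and 1.32 for GIMAP2, none of them called (limma BY-adjusted p = 0.236, 0.175, 0.0859 and 0.666). GIMAP1 had 17.1, 94.9, 70.6, 60.6 and 11.8 in early libraries 1 to 5 and 289, 147, 103, 198 and 191 in the late ones. Its early libraries 1 and 5 were lowest, as for the TMEM176 genes, and its stages did not overlap. GIMAP4 had 196 ± 171 in the early and 795 ± 322 in the late stage, GIMAP8 48.6 ± 29.7 and 177 ± 81.2, and GIMAP2 82.8 ± 59.99 and 173 ± 51.2 (SD, n = 5 each). In deviations from the stage means, the coefficient with the TMEM176 pair was 0.93 for GIMAP1, 0.79 for GIMAP8, 0.77 for GIMAP4 and 0.67 for GIMAP2, and with LOC100687459 it was 0.91, 0.65, 0.58 and 0.70.

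The neighbor called was RARRES2, which encodes the chemoattractant chemerin and stands at the far end of the GIMAP cluster. It rose from 112 ± 38.4 to 333 ± 38.0 (log2FC 1.62, SE 0.22, limma BY-adjusted p = 0.0138), was called in 9 of 10 fits with 1 library left out and missed the threshold without early library 5 (adjusted p = 0.0568). Its coefficient was 0.72 with the pair and 0.43 with LOC100687459. In a wider list of 30 genes around the locus, 19 were tested, 1 was called higher (RARRES2) and 0 lower, and the median log2FC was 0.26, from -1.19 for ZNF467 to 2.51 for GIMAP4. Reads that map to several places were shared among them and genes were extended at their 3′ end in counting, and whether neighboring genes share reads was not tested.

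**Figure D5:**
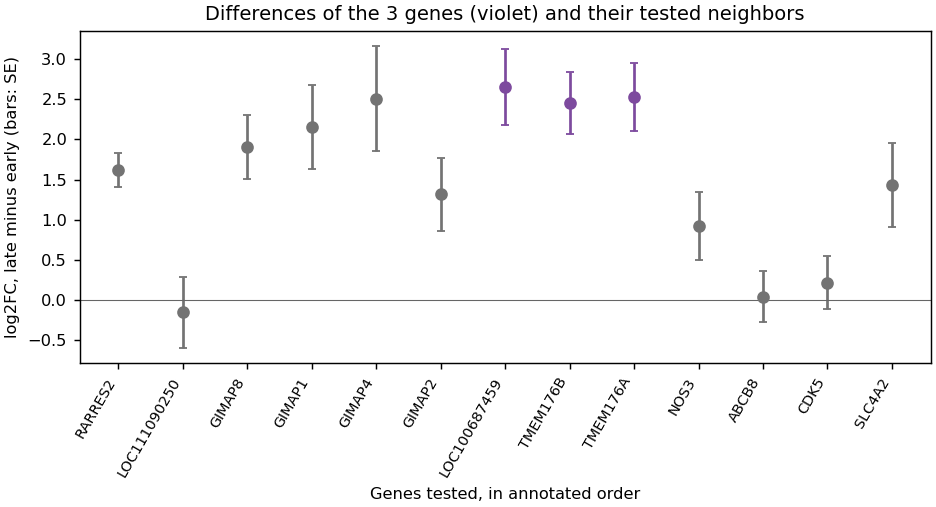
Late minus early log2FC (y axis) of the tested genes around the locus in annotated order (x axis), with bars of 1 SE. The 3 genes in violet lie between 2.45 and 2.66, and the gray neighbors run from -0.16 for LOC111090250 to 2.51 for GIMAP4.

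The genes whose within-stage pattern was most like that of the TMEM176 pair were sought among 7868 tested genes with a mean of at least 50, symbols that start with LOC left out. The highest Pearson coefficients over 10 libraries were 0.95 for PLPP2, 0.95 for PLXDC1, 0.94 for SH2D1A, 0.94 for EIF4E3 and 0.93 for EOMES, while the median over the candidates was -0.01. SH2D1A encodes the adaptor SAP of T and natural killer cells, and EOMES a transcription factor of cytotoxic lymphocytes. Their log2FC was 3.41 and 3.42, that of PLPP2 1.24, of EIF4E3 1.32 and of PLXDC1 0.43. On the same scale, LOC100687459 had 0.85, CD3E 0.80, CD163 0.29 and CD68 -0.18. These are the highest of many coefficients over few libraries and were not tested.

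By the whole profile, stage difference included, the smallest root mean square differences from the pair on the log2 scale were 0.28 for MCTP2, 0.29 for EVL, 0.35 for TIMD4, 0.36 for TNS3 and 0.38 for LIMCH1, against a median of 1.45 over the candidates. EVL encodes a regulator of actin filaments and TIMD4 a phosphatidylserine receptor. MCTP2 had 20.8 ± 9.38 in the early and 103 ± 29.5 in the late stage, close to the levels of TMEM176B. TMEM176A and TMEM176B differed by 0.47 from each other, and LOC100687459 by 0.45 from TMEM176A and 0.54 from TMEM176B.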

How the data were processed

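QuantSeq 3′ libraries of 5 early and 5 late CCH were analysed. Per the submitters' notes and methods, the authors trimmed reads (Cutadapt) and aligned them to CanFam3.1 (STAR). They counted them per gene in a first and a second round (featureCounts), with multi-mapped reads split evenly. Only reads left unassigned in the first round entered the second, on genes with extended 3′ ends. The authors tested with DESeq2, and versions are not given in the sources used here. The deposited signal is a normalized read count: 100% of 166096 values above 0 were whole multiples of 1 read (tolerance 0.01 reads). How reads split evenly over several places came to whole values is not given in the same sources. The table has 21 columns of values, of which 11 match no sample and were not used. The samples differ in the breed, age or sex of the dog. Of the symbols, 19767 (85.0%) were in the RefSeq table.

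Genes that reached 10 in 5 or more libraries entered limma 3.58.1 (R 4.3.3, variance trended on the mean) as log2(value + 1), a scale that understates the change of low genes, with BY adjustment and a log2FC of at least 1, as in the study. Libraries were grouped by the stage in the labels. edgeR 4.0.16 and DESeq2 1.42.0 on recovered reads, Benjamini-Hochberg adjustment, a pseudocount of 8, no filter, a mean of at least 50, TMM and column-total scaling and leaving out each library were alternatives. The fits were also run on simulated counts with the same dispersion for all genes and both stages. That run cannot show how the fits behave where the spread differs between the stages, as it does for TMEM176A. The members and lists were chosen with earlier results of these data known. Named are the 3 genes, per list up to 3 called genes and the highest and lowest log2FC, NLRP3, CD68, CD163, CD3E, CD207, the GIMAP genes, the nearest neighbors and the 5 most alike by each of 2 measures, and 1 gene that the rule also names is not reported here. Lists were of T cells, B cells, macrophages, Langerhans, conventional and mature dendritic cells, MHC class II, inflammasome, type 17, MS4A, locus, keratinocyte and fibroblast genes.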

Additional observations from a re-analysis of the deposited data

Results flagged for a closer look

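The score of the MHC class II list in the early stage had 1 library apart from the others. Early library 1 was at -0.52, the next at -0.14, and the gap was 0.791 of the whole range, above Dixon's critical value of 0.71 for 5 samples. Of 36 groups of values examined, 1 passed, and about 1.8 would pass by chance. This library was also lowest for TMEM176A and for the TMEM176 pair.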

How the results depend on the processing

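Over the 17 alternatives run, the log2FC ran from 2.18 to 2.82 for TMEM176A, 2.06 to 2.66 for TMEM176B and 2.21 to 2.98 for LOC100687459. The 3 genes were chosen because they rise, and their stages did not overlap. Leaving out a library could therefore not turn the direction, and nothing is read from the direction being kept. The pair minus the T-cell list ran from -0.82 to -0.08 and minus the macrophage list from 1.43 to 2.00. The number of genes called was 269 and became 177 with edgeR, 810 with DESeq2 and 1121 with Benjamini-Hochberg adjustment. With 1 library left out it ran from 49 to 260, and fell to 75 without early library 1, 49 without early library 5, 87 without late library 1, 54 without late library 2, 66 without late library 4 and 113 without late library 5. Of the T-cell genes, 1 was called, against 8 with DESeq2, 15 with Benjamini-Hochberg adjustment and 5 with a pseudocount of 8, and 0 to 3 with 1 library left out. CD6 was lost without early library 5 and without late libraries 1, 2, 4 or 5. Of the macrophage genes, 0 were called, against 2 with DESeq2, 4 with Benjamini-Hochberg adjustment and 0 to 1 with 1 library left out. Fewer samples enter each fit with a library left out, and the cause of the other changes was not tested. No paired analysis was possible because no replicate numbers stand in the column names and the stages come from different dogs. Depth limits TMEM176B most, with 8 to 34 reads in each early library.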

Other observations

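Genes of B cells, keratinocytes and fibroblasts were also set beside the TMEM176 pair. Of 9 B-cell genes, 7 were tested and 0 called with limma, with 5 upward and 0 downward at an unadjusted p under 0.05, 3 called by DESeq2 and 0 by edgeR. Their median log2FC was 2.16, from -0.87 for BANK1 to 4.67 for CD79B, a chain of the B-cell receptor, and the coefficient of the pair with their score in deviations from the stage means was 0.10 (Spearman 0.30). Early libraries 5 and 1 had the lowest B-cell scores, -1.69 and -1.32, as they had the lowest pair scores. Late library 3 had the highest B-cell score, 3.18, while its pair score of 0.78 was among the lowest of the late stage.

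Of 9 keratinocyte genes, 8 were tested and 0 called with limma, with 0 upward and 1 downward at an unadjusted p under 0.05, and 0 called by edgeR or DESeq2. Their median log2FC was -0.997, from -1.42 for TP63, a transcription factor of basal keratinocytes, to 0.26 for IVL, a protein of the cornified envelope, and the coefficient with the pair was -0.14. Of 9 fibroblast genes, 9 were tested, 1 was called higher and 0 lower, with a median log2FC of -0.12. THY1, a surface protein of fibroblasts and of some lymphocytes, rose from 531 ± 123 to 1390.1 ± 334 (log2FC 1.38, SE 0.21, limma BY-adjusted p = 0.0226), and was lost without early library 1 and without late libraries 1, 2, 4 or 5, with an adjusted p of up to 0.0854. LUM, a proteoglycan of the matrix, had the lowest log2FC (-0.47), and the coefficient of the pair with this list was -0.14.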
